A study of Mus musculus with 6 samples.

Results

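The Sprouty genes Spry1, Spry2 and Spry4, the Sprouty-related genes Spred1, Spred2 and Spred3, and Il17rd, which encodes Sef, were followed through 6 RNA libraries of mouse embryonic stem cells (ESCs). They were chosen by name as feedback inhibitors of fibroblast growth factor (FGF) and Erk signalling, and are 7 of the 18857 genes that were joined over the libraries by NCBI gene ID. Each of the 7 had reads in all 6 libraries, and each passed the limits on low values in every comparison.

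All cells belonged to the ESC line KH2 on a C57BL/6 x 129 background, and each group was 1 polyA RNA library. Wild-type KH2 cells received the Mek inhibitor PD0325901 for 48 hours or were left untreated. Mek is the kinase that switches Erk on. The 4 other libraries came from an engineered line with the label iErk1; Erk KO, where doxycycline (Dox) induces Erk1 in cells knocked out for Erk. These cells were kept with Dox, kept without Dox for 48 hours or for 96 hours, or kept without Dox for 96 hours with PD0325901 in the last 48 hours. The knockout and the inducible gene are thus common to all 4 libraries, the one with Dox included, and they are called Erk KO cells here. The sources used here give neither the inhibitor's dose nor the medium, feeder cells or number of clones. The study's design text names PD0325901 against no inhibitor in either kind of cell, and 48 hours without Dox against Dox, as its comparisons. The other comparisons below follow from the groups.

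FGF receptors signal through the small protein Ras to the kinases Raf, Mek and Erk, and Erk in turn raises the transcription of genes whose products damp the same route. Sprouty proteins act between the receptor and Raf, Spred proteins bring the Ras inactivator neurofibromin to the membrane, and Sef acts on the receptor and on the Mek and Erk complex. In mouse ESCs the main ligand is Fgf4, which the cells make themselves, and Erk activity drives them away from the naive state of pluripotency.

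Each library held between 9.05 and 9.95 times 1e6 reads assigned to genes, and levels are given as RPKM, reads per 1e6 reads of the library and per kilobase of the gene. Since no group was replicated, a ratio sets one library against another and its 95% interval holds counting error alone. Fewer cells of a type and less RNA per cell cannot be told apart in these data. As a check of the induced gene, Mapk3, which encodes Erk1, had 14.8 RPKM in Erk KO cells with Dox, 6.86 RPKM after 48 hours without it and 6.75 RPKM after 96 hours, against 56.4 RPKM in untreated KH2 cells. These are gene totals and do not show which exons the reads came from. The ESC markers were present throughout, with Pou5f1, a core pluripotency factor, between 539 and 769 RPKM.

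Promoter sequences are shown for 2 Sprouty and 2 Spred genes that differed in response: Spry1, Spry2 and Spred1 were lower after 48 hours without Dox by more than 2-fold, and Spred2 was not. The sequences are from RefSeq on GRCm38.p6, a later build than the mm9 of the deposited files, and run from 250 bases before the annotated start to 50 bases after it, 5′ to 3′. Capitals mark matches, on either strand, to 2 forms of the ETS factor motif, CGGAAG and AGGAAG, which read CTTCCG and CTTCCT on the strand printed when they lie on the opposite one.
Spry1 promoter, chr3:37639697-37639996, plus strand: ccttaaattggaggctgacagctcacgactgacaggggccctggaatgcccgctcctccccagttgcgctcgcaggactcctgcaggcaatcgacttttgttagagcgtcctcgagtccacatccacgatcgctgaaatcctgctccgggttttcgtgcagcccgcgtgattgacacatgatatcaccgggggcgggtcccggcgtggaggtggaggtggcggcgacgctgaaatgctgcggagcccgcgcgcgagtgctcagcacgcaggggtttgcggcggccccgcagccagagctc
Spry2 promoter, chr14:105896770-105897069, minus strand: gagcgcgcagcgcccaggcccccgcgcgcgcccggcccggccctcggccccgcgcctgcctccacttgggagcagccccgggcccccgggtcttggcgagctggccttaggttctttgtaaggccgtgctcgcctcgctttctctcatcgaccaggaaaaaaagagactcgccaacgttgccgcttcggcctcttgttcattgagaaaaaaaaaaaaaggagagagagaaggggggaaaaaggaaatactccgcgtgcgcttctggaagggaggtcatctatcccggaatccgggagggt
Spred1 promoter, chr2:117120821-117121120, plus strand: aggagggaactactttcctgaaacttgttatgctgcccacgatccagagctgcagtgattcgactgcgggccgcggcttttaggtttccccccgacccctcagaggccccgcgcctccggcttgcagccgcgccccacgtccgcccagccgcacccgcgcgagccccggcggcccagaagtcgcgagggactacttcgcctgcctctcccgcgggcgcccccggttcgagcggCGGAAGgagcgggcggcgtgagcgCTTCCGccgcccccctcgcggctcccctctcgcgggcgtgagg
Spred2 promoter, chr11:19924192-19924491, plus strand: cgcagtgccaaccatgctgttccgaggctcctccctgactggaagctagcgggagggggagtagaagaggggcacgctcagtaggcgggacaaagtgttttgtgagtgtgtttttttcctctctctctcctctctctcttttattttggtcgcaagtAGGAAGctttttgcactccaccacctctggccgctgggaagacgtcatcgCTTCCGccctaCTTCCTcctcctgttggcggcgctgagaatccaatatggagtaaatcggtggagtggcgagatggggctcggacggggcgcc

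The Spred1 window held 2 matches to CGGAAG, starting at base -17 and at base 8, where the start of transcription is base 1. The Spred2 window held 1 match to CGGAAG at base -43 and 2 to AGGAAG at bases -93 and -32, none of which overlap. RefSeq's table was matched for 6 of the 7 members, all but Spry4, and the windows of Spry1, Spry2, Spred3 and Il17rd held neither form. No window of the 6 held the AP-1 motif TGANTCA or the CArG box bound by serum response factor. Among all 32851 promoter windows of that length, 16.9% held CGGAAG, 35.4% held AGGAAG, 7.81% held TGANTCA and 1.63% held a CArG box, counting both strands. The share of C and G in the 6 windows ran from 55.0% for Spred3, near the median of 52.7% over all windows, to 72.3% for Spred1. The Spred1 window held 40 CpG dinucleotides, that of Spry1 29, Spry2 28, Il17rd 19, Spred2 17 and Spred3 8, against a median of 7 over all windows. A match describes the letters in the window and says nothing of binding.

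Spry2, whose protein binds the ubiquitin ligase Cbl and the adaptor Grb2, had the highest RPKM of the 7 genes in all 6 libraries. The order below it differed between libraries. Spry4, which blocks the step from receptor to Ras and Raf, was the second highest of the 7 in untreated KH2 cells and the third in Erk KO cells with Dox, but the lowest of the 7 in both libraries with PD0325901. The summed RPKM of the 7 genes was 71.6 in KH2 cells with PD0325901 and 150 in untreated KH2 cells. It was 139 in Erk KO cells with Dox, 56.3 after 48 hours without Dox and 72.4 after 96 hours, and 48.3 with PD0325901 at 96 hours. The sum was thus about as high in the Dox-maintained Erk KO library as in untreated KH2 cells, and low in the 4 libraries in which Erk or Mek had been withdrawn or inhibited.

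The genes differed widely in how far their levels ranged over the 6 libraries. Spry4 ranged 237-fold, between 0.132 RPKM in Erk KO cells with PD0325901 and 31.4 RPKM in untreated KH2 cells. Spred3 ranged 5.36-fold, Spred1 5.06-fold, Spry1 4.41-fold, Spry2 2.46-fold, Il17rd 2.31-fold and Spred2 1.96-fold. For 6 of the 7 the lowest library was Erk KO with PD0325901. The exception was Spred3, whose lowest was Erk KO at 96 hours. For Spry1 (1.01-fold), Spry2 (1.09-fold) and Il17rd (1.05-fold) the step down from Erk KO at 48 hours to this lowest library was within counting error. So was the step between the 2 lowest libraries of Spred3 (1.36-fold). The share of all genes that were lowest in Erk KO with PD0325901 was not counted. Neighbours in the order of libraries were often alike. For Il17rd no neighbouring pair below untreated KH2 cells differed beyond counting error, and its smallest step was 1.05-fold (95% interval 0.905 to 1.22). For Spry4 only Erk KO at 48 hours and KH2 with PD0325901 did not differ, at 1.26-fold (0.866 to 1.85).

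**Figure D1:**
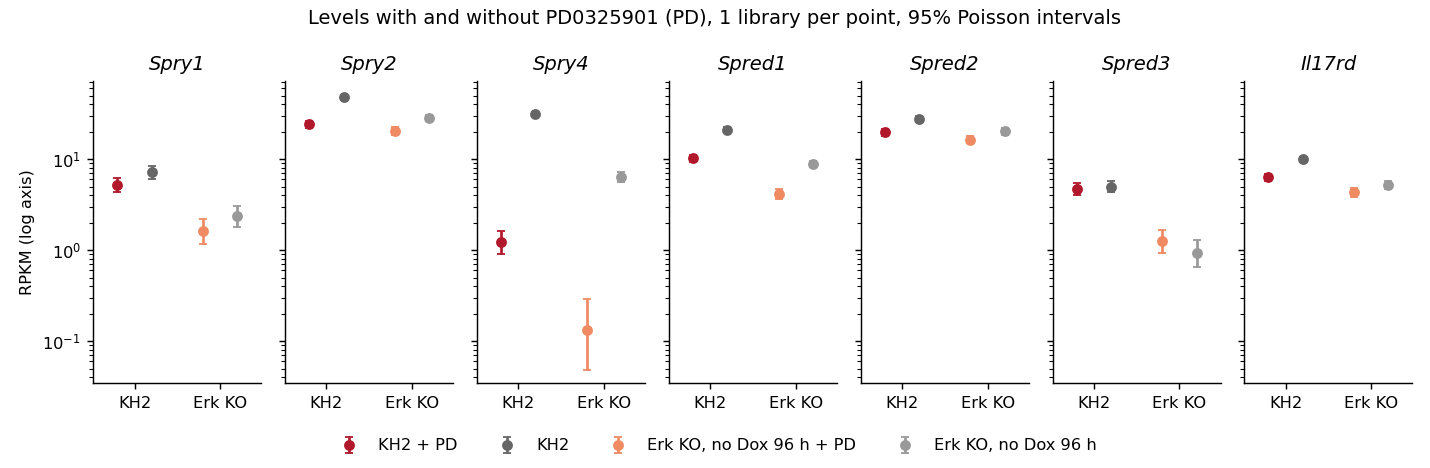
RPKM (log axis) of each of the 7 genes in the 2 pairs of libraries with and without PD0325901, 1 library per point with its 95% Poisson interval. Spry4 stands at 1.22 against 31.4 RPKM in KH2 cells and at 0.132 against 6.41 RPKM in Erk KO cells, while Spred3 lies within counting error in both pairs.

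Mek inhibition in wild-type cells was read from KH2 cells with PD0325901 against untreated KH2 cells. All 7 genes had a ratio below 1, as did 52.7% of the 12787 genes tested. The size of the difference ran from near nothing for Spred3, within counting error, to more than 20-fold for Spry4. A gene passed the size rule, which has no p-value, when its log2 ratio of RPKM plus 0.5 was at least 1 in size, the higher of its RPKM values reached 1, the 2 libraries together gave it at least 20 reads, and the 95% interval of the ratio excluded 1. By this rule 2 of the 7, Spry4 and Spred1, were lower and 0 were higher, where 1.22% of the 12787 genes tested were lower and 3.86% higher.

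Among the Sprouty genes, Spry4 had 51 reads and 1.22 RPKM in treated KH2 cells, against 1316 reads and 31.4 RPKM in untreated KH2 cells. Its RNA was 25.7-fold lower (19.4 to 34.7), a log2 ratio of -4.21, and no gene tested had a lower ratio. The reads covered 42.8% of its length in treated cells and 99.7% in untreated cells. Spry2 had 24.2 RPKM in treated and 47.9 RPKM in untreated KH2 cells, 1.98-fold lower (1.77 to 2.22), which left its log2 ratio of -0.97 just short of the limit. Spry1, known as an antagonist of the receptor Ret in the developing kidney, had 5.24 RPKM in treated and 7.20 RPKM in untreated KH2 cells, a log2 ratio of -0.42 that did not pass. The 3 Sprouty genes thus spread over a wide range of ratios, with Spry4 far from the others.

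Of the Spred genes, Spred1, which is mutated in Legius syndrome in people, had 10.2 RPKM in treated KH2 cells and 21.2 RPKM in untreated KH2 cells. This was 2.08-fold lower (1.88 to 2.30), and its log2 ratio of -1.02 passed the rule, though with a pseudocount of 1 in place of 0.5 it was -0.99 and did not. Spred2, which like Spred1 recruits neurofibromin, had 19.8 RPKM in treated and 27.6 RPKM in untreated KH2 cells, a log2 ratio of -0.47. Spred3, a relative that lacks a working Kit-binding domain, had 4.67 RPKM in treated and 5.0 RPKM in untreated KH2 cells. Its interval reached from 0.865-fold to 1.32-fold lower, so no difference was detectable at this depth. Il17rd had 6.32 RPKM in treated and 10 RPKM in untreated KH2 cells, a log2 ratio of -0.62 at 1.58-fold lower (1.41 to 1.78). Spred2 and Il17rd were thus lower beyond counting error but within 2-fold. The interval lay below 1 for 6 of the 7 genes, against 25.8% of all genes tested, and the median log2 ratio was -0.62 over the members and -0.02 over all genes.

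The same inhibitor was then read in Erk KO cells at 96 hours without Dox, where treated cells had the drug for the last 48 hours. The untreated library of this pair already had low levels of most members, and Spry4 was the single member past the size rule. It was lower, making 1 of 7, where 0.587% of the 11920 genes tested were lower. None of the members was higher, where 1.34% of all genes tested were.

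Spry4 had 6 reads and 0.132 RPKM in treated Erk KO cells, against 294 reads and 6.41 RPKM in untreated Erk KO cells at 96 hours. It was 48.4-fold lower (22.0 to 133), with a log2 ratio of -3.45 on RPKM plus 0.5, which understates the change of so low a level. No gene tested had a lower ratio here either. The 6 reads covered 6.38% of the gene's length, and the level was 0.422% of that in untreated KH2 cells (0.154 to 0.920). Spry2 had 20.4 RPKM in treated and 28.2 RPKM in untreated Erk KO cells, 1.38-fold lower (1.22 to 1.57). Spry1 had 40 reads and 1.63 RPKM in treated Erk KO cells, against 59 reads and 2.38 RPKM in untreated Erk KO cells, and its interval of 0.959 to 2.23-fold lower included no difference. At these counts a difference of the size seen in KH2 cells was not detectable for Spry1.

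Spred1 had 4.19 RPKM in treated Erk KO cells and 8.85 RPKM in untreated Erk KO cells. It was 2.12-fold lower (1.82 to 2.46), close to its ratio in KH2 cells, and its log2 ratio of -1.0 lay just short of the limit before rounding. With TMM scaling or with a pseudocount of 0.1 (log2 ratio -1.06) it passed. Spred2 had 16.4 RPKM in treated and 20.3 RPKM in untreated Erk KO cells, 1.24-fold lower (1.10 to 1.41). Il17rd had 4.33 RPKM in treated and 5.23 RPKM in untreated Erk KO cells, 1.21-fold lower (1.05 to 1.39). Spred3 was the 1 member with a positive log2 ratio, 0.30, at 1.27 RPKM in treated and 0.932 RPKM in untreated Erk KO cells, within counting error (0.875 to 2.13-fold higher). The interval lay below 1 for 5 of the 7, against 15.2% of all genes tested, and the median log2 ratio was -0.43 over the members and 0.01 over all genes.

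**Figure D2:**
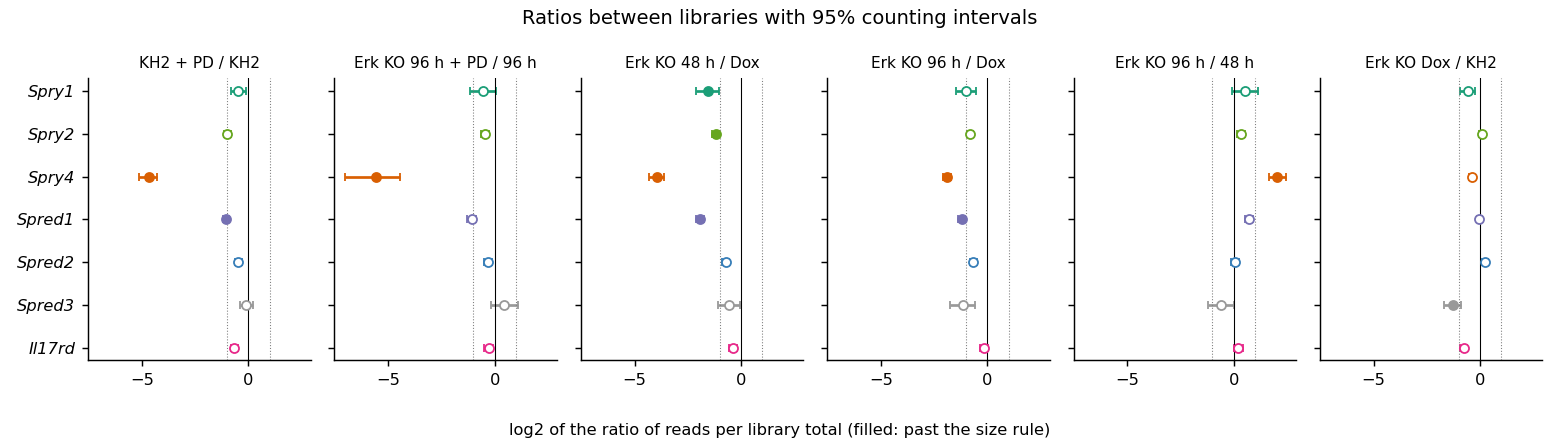
Log2 of the ratio of reads scaled to the library totals, with 95% counting intervals, for the 7 genes in 6 comparisons named above each panel as first library over second. Filled points passed the size rule, which is computed on RPKM plus 0.5, and dotted lines mark 2-fold, so that Spry4 is filled in every panel but the last and Spred3 in the last alone.

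The 4 libraries of these pairs were then fitted together, with cell state as a block, for a single effect of PD0325901. The fit used edgeR's quasi-likelihood test, and p-values were adjusted by Benjamini-Hochberg over 14782 genes. In that test 5 of the 7 members fell and 0 rose, where 2.92% of all genes tested, or 432, were lower and 6.05%, or 894, were higher. For Spry4 the fold change on the log2 scale was -4.84 (SE 0.193, adjusted p 2.24e-10 by edgeR), lower in both pairs. Spred1 was at -1.06 (SE 0.109, adjusted p 1.03e-05 by edgeR) and Spry2 at -0.73 (SE 0.125, adjusted p 0.00141 by edgeR), also lower in both pairs. Il17rd (-0.48, adjusted p 0.0244 by edgeR) and Spred2 (-0.40, adjusted p 0.0354 by edgeR) passed with smaller fold changes. Spry1 was at -0.48 (adjusted p 0.179 by edgeR) and Spred3 at 0.09 (adjusted p 0.851 by edgeR), and neither passed. DESeq2 called 3 of the 7 lower, Spry4, Spred1 and Spry2, and gave Il17rd an adjusted p of 0.313 and Spred2 one of 0.422.

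This joint fit leaves each gene 1 residual degree of freedom, and most of its spread is borrowed across genes through a median of 13.8 prior degrees of freedom. Without the cell state block no member passed, each with an adjusted p of 1 by edgeR, and 0 genes were called (270 at an unadjusted p under 0.05). With all 6 libraries in 3 states, the 48 and 96 hour libraries without Dox counted as 1 state, Spry4 (adjusted p 0.0187 by edgeR) was the single member called.

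Whether the inhibitor's effect differed between the cell states was tested in edgeR over all 6 libraries, as the log2 effect in Erk KO cells minus that in KH2 cells. The untreated Erk KO libraries at 48 and 96 hours counted as 1 state. The Erk KO effect in this fit was therefore not taken against the 96 hour library alone. Spry4 had a difference of -0.22 (SE 1.07), Spred1 of 0.25 (SE 0.433) and Spred2 of 0.15 (SE 0.381). Spry2 had the largest of the 7, 0.64 (SE 0.387, unadjusted p 0.12 and adjusted p 1 by edgeR), and Il17rd had 0.44 (SE 0.402). Of the 7 members 0 passed in either direction, where 0% of 15103 genes were called, 129 had an unadjusted p under 0.05, and DESeq2 called 0. Both the estimates and the standard errors take in the distance between the 48 and 96 hour libraries. Differences of the size of Spry2's lie within what this fit cannot resolve. Against the 96 hour library alone, Spry4 was 48.4-fold lower in Erk KO cells, and it was 25.7-fold lower in KH2 cells. For Spred1 these values were 2.12-fold and 2.08-fold.

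Markers of other cell types moved with the inhibitor. Of 24 fibroblast markers, 15 were higher with PD0325901 in KH2 cells and 14 in Erk KO cells by the size rule, and 0 were lower in either pair. Their summed RPKM was 3861 in treated and 1146 in untreated KH2 cells, and 1471 in treated and 614 in untreated Erk KO cells at 96 hours. None was at 0 reads in any library, and Col1a1, a main collagen of fibroblasts, had 878 RPKM in treated and 96.4 RPKM in untreated KH2 cells. Of 14 primitive endoderm markers 3 were higher in treated KH2 cells and 0 in treated Erk KO cells, with sums of 1108 against 472 RPKM and 863 against 523 RPKM, treated against untreated, and with 1 or 2 markers at 0 reads in each library. The 3 that passed were the matrix genes Sparc (687 RPKM in treated and 219 RPKM in untreated KH2 cells), Col4a1 and Col4a2, which make up most of the sum. The lineage genes Dab2 (-0.89), Sox17 (-0.61), Gata6 (-0.52) and Sox7 (-0.33) had negative log2 ratios in KH2 cells and did not pass. Summed neural markers stood at 82.0 RPKM in treated and 59.6 RPKM in untreated KH2 cells and at 60.8 RPKM in treated and 49.5 RPKM in untreated Erk KO cells. Most of these sums came from Tubb3 and Nes, and 7 of the 10 neural markers were under 1 RPKM in each of these libraries. In either pair 0 of the 10 passed. Log2 ratios in KH2 and in Erk KO cells were -1.37 and 0.33 for Pax6 and 0.24 and 0.11 for Sox1. Summed ESC markers stood at 3998 RPKM in treated and 4449 RPKM in untreated KH2 cells, and at 3442 RPKM in treated and 3469 RPKM in untreated Erk KO cells. Of 12 ESC markers 1, Utf1, was lower in treated KH2 cells (log2 ratio -1.45), and Nanog had a log2 ratio of 0.98 there. The part of these markers in the members' ratios was not tested.

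**Figure D3:**
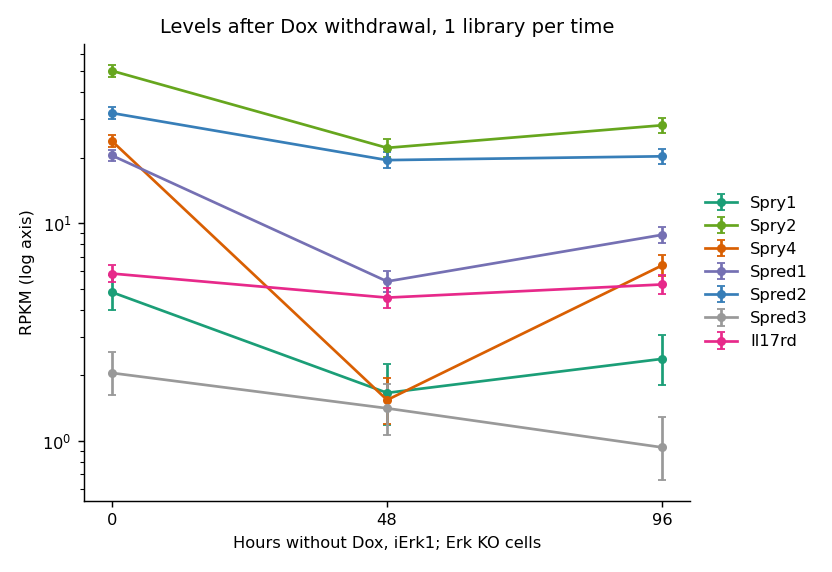
RPKM (log axis) of the 7 genes in Erk KO cells against hours without Dox, 1 library per time with 95% Poisson intervals. Spry4 goes through 23.9, 1.54 and 6.41 RPKM and Spred1 through 20.5, 5.40 and 8.85 RPKM, whereas Spred3 goes through 2.05, 1.41 and 0.932 RPKM.

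Loss of inducible Erk1 was read from Erk KO cells at 48 hours without Dox against Erk KO cells with Dox. The size rule called 4 of the 7, Spry1, Spry2, Spry4 and Spred1, all lower, where 2.13% of the 11386 genes tested were lower and 2.77% higher. All 3 Sprouty genes are among them.

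Spry4 had 69 reads and 1.54 RPKM at 48 hours without Dox, against 1036 reads and 23.9 RPKM with Dox. It was 15.5-fold lower (12.1 to 20.1), with a log2 ratio of -3.58. Spry2 had 22.2 RPKM at 48 hours and 50.2 RPKM with Dox, 2.26-fold lower (2.02 to 2.53). Spry1 had 40 reads and 1.66 RPKM at 48 hours, against 113 reads and 4.82 RPKM with Dox, 2.91-fold lower (2.01 to 4.29). Of the 50-base words of Spry1 transcripts 21.8% also occur in the predicted gene Gm42922 of the GENCODE annotation. The deposited counts hold uniquely mapped reads alone, and whether this lowered the counts of Spry1 was not tested. Spry4 (log2 ratio -3.58) thus stood apart from Spry1 (-1.30) and Spry2 (-1.16), whose intervals overlap.

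Spred1 had 331 reads and 5.40 RPKM at 48 hours, against 1220 reads and 20.5 RPKM with Dox. It was 3.80-fold lower (3.36 to 4.31), with a log2 ratio of -1.83. Spred2 had 19.5 RPKM at 48 hours and 32.1 RPKM with Dox, 1.64-fold lower (1.47 to 1.83), and did not pass. Spred3 had 1.41 RPKM at 48 hours and 2.05 RPKM with Dox, 1.45-fold lower (1.02 to 2.09), and Il17rd had 4.55 RPKM at 48 hours and 5.87 RPKM with Dox, 1.29-fold lower (1.12 to 1.48). The interval lay below 1 for 7 of the 7, against 26.2% of all genes tested. The median log2 ratio was -1.16 over the members and -0.03 over all genes. Markers of other cell types moved in both directions beside these genes. Of 10 neural markers 1 was higher, Tubb3, with 47.5 RPKM at 48 hours and 17.5 RPKM with Dox, and 0 were lower. The neural sum was 72.9 RPKM at 48 hours and 36.4 RPKM with Dox. Most of it came from Tubb3 and Nes, the latter with 18.6 RPKM at 48 hours and 9.31 RPKM with Dox. The lineage genes Pax6 (-0.91) and Sox1 (-0.19) had negative log2 ratios and did not pass, and 6 of the 10 were under 1 RPKM at 48 hours. Of 14 primitive endoderm markers 1 was lower, the transcription factor gene Gata6, with 2.58 RPKM at 48 hours and 8.32 RPKM with Dox, and the sum was 532 RPKM at 48 hours and 442 RPKM with Dox. Most of that sum was the matrix gene Sparc, with 351 RPKM at 48 hours and 248 RPKM with Dox. The lineage genes Sox7 (-0.41), Sox17 (-0.27), Gata4 (-0.25) and Dab2 (-0.07) had negative log2 ratios and did not pass. Of 24 fibroblast markers 1 was lower, Twist1, and their sum was 547 RPKM at 48 hours and 559 RPKM with Dox. Of 12 ESC markers 2 were higher, Nanog and Fgf4, and 1 was lower, Utf1, with sums of 3446 RPKM at 48 hours and 2925 RPKM with Dox. In these 2 libraries no fibroblast or ESC marker and 2 markers each of primitive endoderm and of neural cells were at 0 reads, and the part of the markers in the members' ratios was not tested.

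**Figure D4:**
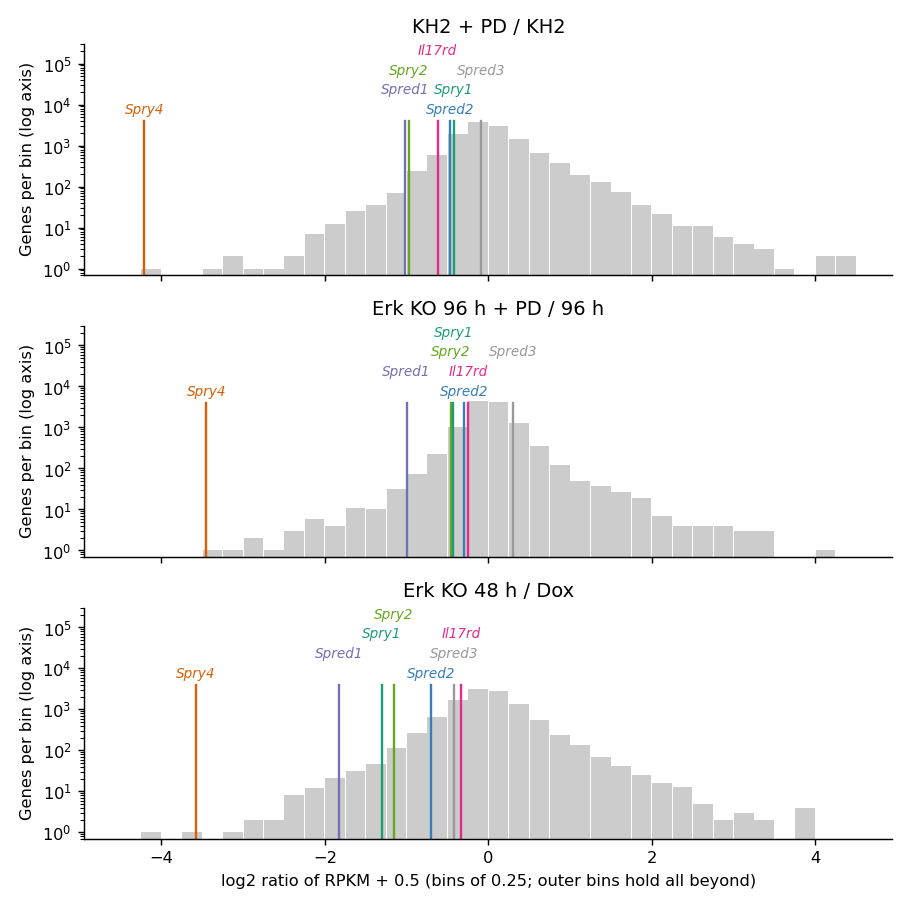
Number of genes (log axis) by log2 ratio of RPKM plus 0.5 in bins of 0.25, for PD0325901 in KH2 cells (top), PD0325901 in Erk KO cells (middle) and 48 hours without Dox (bottom), with the 7 genes marked by lines. Spry4 lies at or next to the left end of each panel, at -4.21, -3.45 and -3.58, and Spred3 lies near the middle, at -0.09, 0.30 and -0.42.

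At 96 hours without Dox the levels lay between those with Dox and those at 48 hours for 6 of the 7 genes. The share of all genes with this pattern was not counted, and 40.3% of the 11722 genes tested were below their 48 hour level. The step from 48 to 96 hours was within counting error for Spry1 (0.946 to 2.20-fold), Spred2 (0.925 to 1.17-fold) and Il17rd (0.997 to 1.33-fold). The interval of 96 over 48 hours lay above 1 for 3 of the 7, against 32.0% of all genes tested. Against the Dox library the size rule called 2 of 7, Spry4 and Spred1, both lower, where 2.07% of the 11804 genes tested were lower and 7.62% higher. This comparison and the one at 48 hours share the Dox library, so their values are not independent. Spry4 had 6.41 RPKM at 96 hours and 23.9 RPKM with Dox, 3.73-fold lower (3.27 to 4.26). Spred1 had 8.85 RPKM at 96 hours and 20.5 RPKM with Dox, 2.32-fold lower (2.09 to 2.57). The other log2 ratios at 96 hours were -0.89 for Spry1, -0.82 for Spry2, -0.83 for Spred3, -0.65 for Spred2 and -0.15 for Il17rd, and none of these passed. Spred3 was 2.20-fold lower (1.48 to 3.33) on its reads and passed with a pseudocount of 0.1 (log2 ratio -1.06). The interval lay below 1 for 6 of the 7, against 25.2% of all genes tested, and the median log2 ratio was -0.83 over the members and 0.05 over all genes. Of 14 primitive endoderm markers 5 were lower at 96 hours than with Dox, among them Gata6, with 1.20 RPKM at 96 hours and 8.32 RPKM with Dox, and 0 were higher. Of 24 fibroblast markers 2 were higher, Dcn and Lox, and 1 was lower, Pdgfra, and of 10 neural markers 1 was higher, Nes, and 2 were lower, Pax6 and Sox1. Of 12 ESC markers 1 was higher, Nanog, and 2 were lower, Utf1 and Lin28a. The part of these markers in the members' ratios was not tested.

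Set directly against the library at 48 hours, the 96 hour library had more Spry4. The size rule called 1 of 7, Spry4, as higher and 0 as lower, where 4.55% of the 11722 genes tested were higher and 0.469% lower. Spry4 had 294 reads and 6.41 RPKM at 96 hours, against 69 reads and 1.54 RPKM at 48 hours, 4.15-fold higher (3.19 to 5.48). At 96 hours it had reached 20.4% of its level in untreated KH2 cells (17.9 to 23.2). Spred1 had 8.85 RPKM at 96 hours and 5.40 RPKM at 48 hours, 1.64-fold higher (1.43 to 1.89), and Spry2 had 28.2 RPKM at 96 hours and 22.2 RPKM at 48 hours, 1.27-fold higher (1.12 to 1.44). Neither passed the rule, and both intervals lay above 1. The interval was above 1 for 3 of the 7, against 32.0% of all genes tested, a share near the background. Mapk3 was at 6.75 RPKM at 96 hours and 6.86 RPKM at 48 hours. Spred3 had a log2 ratio of -0.41, 0.932 RPKM at 96 hours and 1.41 RPKM at 48 hours, within counting error on the library totals (0.426 to 1.02-fold) but below 1 with TMM scaling (0.391 to 0.931-fold). Il17rd (0.18) and Spred2 (0.06) had log2 ratios near 0, and that of Spred2 was -0.07 with TMM scaling, which lowers the median of all genes by 0.12 here. Of 10 neural markers, 4 of them above the limits on low values, 3 were lower at 96 hours than at 48 hours, Tubb3, Sox1 and Pax6. Of 14 primitive endoderm markers, 9 of them above these limits, 1 was lower, Dab2, with 2.93 RPKM at 96 hours and 13.0 RPKM at 48 hours. Of 24 fibroblast markers 2 were higher, Dcn and Lox, and no ESC marker passed. The part of these markers in the members' ratios was not tested.

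Erk KO cells with Dox were also set against untreated KH2 cells, to see how near the engineered line comes to the wild type while Erk1 is induced. Spred3 alone of the 7 passed, as lower, where 21.4% of the 12421 genes tested were lower and 2.76% higher, so that 1 of 7 is no more than the background. Spry4 had 23.9 RPKM with Dox and 31.4 RPKM in KH2 cells, 76.0% of the KH2 level (70.0 to 82.6). Spry2 had 50.2 RPKM with Dox and 47.9 RPKM in KH2 cells, and Spred1 had 20.5 RPKM with Dox and 21.2 RPKM in KH2 cells, both within counting error on the library totals. Spred2 had 32.1 RPKM with Dox and 27.6 RPKM in KH2 cells, a log2 ratio of 0.21. With TMM scaling Spry2 was 1.39-fold (1.27 to 1.52), Spred1 1.28-fold (1.19 to 1.39) and Spred2 1.54-fold (1.40 to 1.70) higher with Dox than in KH2 cells, and Spry4 was within counting error at 1.01-fold (0.928 to 1.09). None of the 4 passed the size rule on either scale.

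Spred3 had 79 reads and 2.05 RPKM with Dox, against 186 reads and 5.0 RPKM in untreated KH2 cells, 2.44-fold lower (1.86 to 3.21). Its log2 ratio of -1.11 became -0.76 with TMM scaling and -0.98 with a pseudocount of 1, and passed with neither. Il17rd had 5.87 RPKM with Dox and 10 RPKM in KH2 cells, and Spry1 had 4.82 RPKM with Dox and 7.20 RPKM in KH2 cells. TMM scaling moved the median of all genes in this comparison by 0.39, and the calls that were lower made up 88.6% of all calls without it and 58.5% with it. Relative to the median of all genes, -0.37, the log2 ratios were 0.59 for Spred2, 0.44 for Spry2, 0.33 for Spred1, -0.02 for Spry4, -0.16 for Spry1, -0.35 for Il17rd and -0.74 for Spred3. Of 24 fibroblast markers 10 were lower with Dox than in untreated KH2 cells and 0 higher, with sums of 559 RPKM with Dox and 1146 RPKM in KH2 cells, and their part in these ratios was not tested. The sign for Spry4 and for Spred1 thus depends on the scaling, with TMM values of 0.01 and 0.35 in place of -0.39 and -0.04.

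The libraries of the engineered line also covered less of each gene at the same number of reads. For genes with 50 to 500 reads and 1500 to 6000 bases, the median share of the length covered was between 73.1% and 75.5% in the 4 Erk KO libraries, against 85.7% and 85.2% in KH2 cells with PD0325901 and in untreated KH2 cells. Reads placed at random would have covered 94.5% to 96.1%. Spred3, with 79 reads, was covered over 40.8% of its length in Erk KO cells with Dox, against 78.7% from 186 reads in untreated KH2 cells. Spry1 was covered over 65.2% with 113 reads in Erk KO cells with Dox, and over 88.3% with 118 reads in KH2 cells with PD0325901. The part of this in the ratios between the engineered line and KH2 cells was not tested, and it is shared by both libraries of each ratio within the engineered line. Of the 50-base words of Spred3 transcripts 2.46% are shared with Ggn, an overlapping gene with at most 11 reads in any library, and the files do not separate strands.

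**Figure D5:**
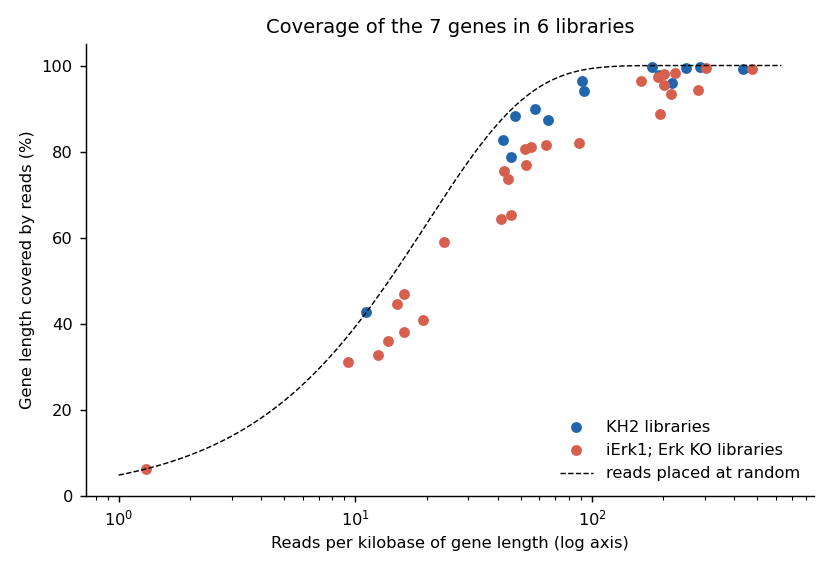
Percent of gene length covered by reads against reads per kilobase of gene length (log axis), for the 7 genes in KH2 libraries (blue) and Erk KO libraries (red), with the share expected for reads placed at random as a dashed line. Between about 10 and 100 reads per kilobase the Erk KO points lie below the KH2 points, and at more reads both approach full coverage.

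Few genes of the route that the members inhibit passed in any comparison within a cell line. In a list of 28 genes from Fgf4 and its receptors to Erk, 0 passed the size rule with PD0325901 in KH2 cells and 0 in Erk KO cells, with median log2 ratios of 0.01 and -0.01. The common test called 2 of them higher, Fgf4 (0.43, adjusted p 0.0198 by edgeR) and its receptor Fgfr1 (0.38, adjusted p 0.0254 by edgeR), and 0 lower, and DESeq2 called 0. At 48 hours without Dox, Fgf4 passed as higher, at 136 RPKM against 56.2 RPKM with Dox, and Mapk3 as lower. At 96 hours against 48 hours the Ras inactivator gene Rasa3 was higher, with 9.78 RPKM at 96 hours and 4.25 RPKM at 48 hours. With Dox against KH2 cells 6 of the 28 were lower, where 21.4% of all genes tested were, so the count is near the background. Among the 6 were Mapk3, the docking protein gene Frs3 and the receptor gene Fgfr4. The list median was -0.50 and the all-gene median -0.37.

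Among 20 genes whose products bind or modify Sprouty and Spred proteins, Cav1, the main protein of caveolae, was higher with PD0325901 in both cell states and no other passed in either pair. Cav1 had 64.3 RPKM in treated and 16.0 RPKM in untreated KH2 cells, and 34.9 RPKM in treated and 11.1 RPKM in untreated Erk KO cells. The common test called 2 of the 20 higher, Cav1 (1.84, adjusted p 6.46e-08 by edgeR) and the kinase gene Prkd1 (1.23, adjusted p 0.0242 by edgeR), and 0 lower, and DESeq2 called 1 higher. Of the 20, 0 passed at 48 or 96 hours without Dox, in either direction. With Dox against KH2 cells 3 of the 20 were lower, the kinase genes Prkcd and Mknk2 and the ubiquitin ligase gene Siah2. This is no more than the background, where 21.4% of all genes tested were lower. Nf1, which encodes the neurofibromin that Spred proteins recruit, had a common log2 fold change of -0.10 (adjusted p 0.702 by edgeR), and Lztr1, an adaptor of Ras degradation, of 0.15 (adjusted p 0.545 by edgeR).

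In a list of 24 other genes that FGF or Erk is known to induce, the responses were mixed under the inhibitor and mostly lower after Dox withdrawal. With PD0325901 in KH2 cells 4 were lower and 2 higher. The lower ones included the transcription factor genes Etv4 (5.72 against 53.1 RPKM, treated against untreated) and Etv1 and the Erk phosphatase gene Dusp6 (6.95 against 34.8 RPKM), and Ier3 was among the higher. In treated Erk KO cells 3 were lower, Etv4, Dusp6 and Myc, and 1 was higher, Fosb. At 48 hours without Dox the rule called 12 as lower and 0 as higher. The median log2 ratio was -1.17. The immediate early gene Egr1 had the lowest ratio of the list, -4.15 on the log2 scale, with 2.11 RPKM at 48 hours and 45.7 RPKM with Dox. At 96 hours it called 12 as lower and 1 as higher, at a median of -1.14. Against 48 hours, 4 of the 24 were higher at 96 hours, Egr1 (log2 ratio 1.69), Etv4 (1.49), Myc (1.21) and Dusp6 (1.03), and 0 were lower. The common test called 6 of the 24 higher and 7 lower, and DESeq2 called 4 and 3. With Dox against KH2 cells 10 of the 24 were lower and 2 higher, where 21.4% of all genes tested were lower and 2.76% higher. The lower ones included Etv4 (8.14 against 53.1 RPKM, Dox against KH2) and Egr1 (45.7 against 168 RPKM). The list median was -0.27 and the all-gene median -0.37.

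The genes most like each member were found by the root mean square difference of log2(RPKM + 0.5) over the 6 libraries, each gene centred on its own mean, among 10331 genes with at least 100 reads in their highest library. For Spry4 the nearest were Trh, which encodes thyrotropin-releasing hormone, at a distance of 0.71, the homeobox gene Gbx2 at 0.86 and Dusp6 at 0.88. Trh had 25.9 RPKM in treated and 147 RPKM in untreated KH2 cells, and 154, 35.4 and 42.7 RPKM in Erk KO cells with Dox, at 48 hours and at 96 hours. The nearest gene to Spry4 was farther off than the nearest gene of the 5 other members compared. This distance grows with a gene's range, and the log2 range of Spry4 was 5.66, against 2.21 for Spred1, the next widest. For Spred1 the nearest were 2010204K13Rik (0.19), Pdzd4 (0.19) and Mapk4 (0.20), and for Spry2 they were Jmjd1c (0.10), Hmces (0.11) and Slc4a7 (0.12). For Spry1 they were Nrp2 (0.07), Rad9b (0.11) and Usp11 (0.11), for Spred3 Ubald2 (0.10), 9430015G10Rik (0.12) and H1f10 (0.12), and for Il17rd Rfx3 (0.05), Ints11 (0.05) and Engase (0.06). Spred2, with a log2 range of 0.95, fell short of the range of 1 set for this search. Among the members themselves the nearest pair was Spry2 and Spred2, at 0.21, and the farthest was Spry4 and Spred3, at 1.94.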

How the data were processed

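PolyA RNA of 6 libraries was read from one end over 50 bases, per the labels' protocols. Per the file headers, the deposited values are a gene's count of uniquely mapped reads, the RPKM that the authors computed from it, and the percent of gene length under reads. Per the submitters' processing notes the genome build was mm9. Neither aligner nor annotation is given in the sources used here. A gene with no row was set to 0 reads. The join by NCBI gene ID gave 18857 genes, and symbols for 18805 came from RefSeq's GRCm38.p6 table, used for names and for promoter sequence but not for coordinates of the files. Gene lengths differed between files for 41 genes.

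The members, lists, tests and alternatives were chosen with earlier results of these data known. For a ratio, the exact 95% Clopper-Pearson interval of the first library's share among both libraries' reads was converted with the totals, and levels have exact Poisson intervals. Reads carried no molecular identifiers, so both cover counting error only. Ratios used a pseudocount of 0.5 RPKM. Counts for a gene list are out of all its genes, some of which fell short of the limits on reads or RPKM in some comparisons. The common test and the difference test used edgeR 4.0.16 (quasi-likelihood F test, TMM scaling, at least 20 reads over the libraries fitted, Benjamini-Hochberg threshold 0.05) in R 4.3.3. The difference test pooled the untreated Erk KO libraries at 48 and 96 hours as 1 state (median prior degrees of freedom 12.2). Standard errors came from the fold change and the F value. DESeq2 1.42.0, RLE size factors, no minimum on reads, no cell state block, other pseudocounts and TMM scaling of the ratios were tried. The fits and the size rule were tested on simulated data. From each gene list up to 4 genes with the largest log2 ratio among those that passed were named, with the 3 marker genes of the highest mean RPKM, the 3 genes most like each member, and Mapk3. One gene of that rule is not reported here. Fgf4 and Fgfr1 in the common test, Prkd1, Nf1 and Lztr1, and the markers named that did not pass, were named after their values were seen. Shared 50-base words were searched exactly, on both strands, in GENCODE M21 transcripts.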

Additional observations from a re-analysis of the deposited data

How the results depend on the processing

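The direction and side of the limit were stable for most member ratios, and Spry4 in the comparisons it passed and the 48 hour calls of Spry1, Spry2 and Spred1 passed under every pseudocount and scaling tried. Counts of all genes moved more. With a pseudocount of 0.1, lower genes numbered 275 with PD0325901 in KH2 cells, 112 with it in Erk KO cells and 89 at 96 against 48 hours. With a pseudocount of 1 there were 44 lower genes with PD0325901 in Erk KO cells, 160 at 48 hours against Dox, and 314 higher and 35 lower at 96 against 48 hours. TMM scaling gave 1006 higher and 1419 lower genes for Dox against KH2. In the common test RLE size factors gave 739 lower genes, DESeq2 338 higher and 103 lower, no cell state block 0 and 0, and all 6 libraries in 3 states 103 higher and 15 lower. In that last fit the log2 fold change of Spred3 was -0.03, with the sign reversed. In the difference test RLE size factors gave 1 lower gene and no minimum on reads 2. The causes of these shifts were not tested. The pairs of the common test are those of cell state, since the labels give no replicate numbers, and with its block 5 of the 7 members were called, against 0 without it. No library could be left out because each group has 1. Depth limits Spry1 and Spred3 in Erk KO cells, with between 38 and 113 reads, and Spry4 with PD0325901 at 96 hours, with 6 reads.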
